A study of Mus musculus with 12 samples.

Results

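The genes described here are 7 that act in MHC class II antigen presentation: H2-Aa, H2-Ab1, H2-Eb1, Cd74, H2-DMa, H2-DMb1 and Ciita. They were picked by gene symbol, with no measured value in the rule, but earlier results of these data were known at the time. Shares of the members set beside shares of all genes are therefore descriptions. All 7 were found among the 17875 genes of the tables. All 7 were among the 13453 genes with enough counts to be tested. Messenger RNA was sequenced from subcutaneous colorectal tumour tissue of mice, in 12 libraries that formed 4 groups of 3. The stress group carried tumours and was under chronic stress, and the low-dose and high-dose groups carried tumours under the same stress and also received a low or a high dose of Xiaochaihu decoction, a herbal mixture used in traditional Chinese medicine. The control group carried the tumours alone. A subcutaneous tumour was thus common to all 4 groups, and stress was common to all groups but the control. No group received the decoction without stress. The labels gave no doses in numbers, no mouse strain, age or sex, no tumour cell line and no kind of stressor.

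MHC class II molecules carry peptides from engulfed proteins to the surface of antigen-presenting cells, where CD4 T cells read them. H2-Aa and H2-Ab1 encode the alpha and beta chains of the mouse I-A molecule, and H2-Eb1 encodes the beta chain of I-E. Cd74 encodes the invariant chain, which guards the peptide groove during transport, and H2-DMa and H2-DMb1 encode the DM heterodimer that swaps the remnant of that chain for antigenic peptide. Ciita encodes the co-activator that switches these genes on, and it is itself induced by interferon-gamma or kept on in dendritic cells and B cells.

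In GRCm38.p6, the 5 H2 genes lay within the MHC on chromosome 17, between 34119693 (the start of H2-DMa) and 34316674 (the end of H2-Eb1). The co-activator does not bind DNA itself but docks on factors held at conserved promoter boxes, the X box bound by the RFX complex and the Y box bound by NF-Y. The RefSeq promoter table held a window for 4 members, which ran from 250 bases before to 50 after a transcript start. The 150 bases before the start are shown for 2 members that held both searched cores, for H2-DMb2, a close copy of H2-DMb1 that is no member, and for H2-Aa. They are written 5′ to 3′ in the direction of the gene (GRCm38.p6; H2-Eb1 chr17:34305717-34305866, H2-DMb1 chr17:34153041-34153190 and H2-DMb2 chr17:34145099-34145248 on the plus strand, H2-Aa chr17:34287824-34287973 on the minus strand). Capitals mark the X1 box core ACNGATG and the Y box core CCAAT, each searched on both strands, so that ATTGG is the Y box core on the opposite strand.
H2-Eb1: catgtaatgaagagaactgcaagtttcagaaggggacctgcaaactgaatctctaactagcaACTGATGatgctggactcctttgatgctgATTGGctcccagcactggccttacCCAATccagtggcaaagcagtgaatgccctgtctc
H2-DMb1: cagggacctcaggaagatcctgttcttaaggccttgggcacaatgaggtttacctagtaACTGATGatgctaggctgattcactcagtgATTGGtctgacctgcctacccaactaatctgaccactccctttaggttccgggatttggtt
H2-DMb2: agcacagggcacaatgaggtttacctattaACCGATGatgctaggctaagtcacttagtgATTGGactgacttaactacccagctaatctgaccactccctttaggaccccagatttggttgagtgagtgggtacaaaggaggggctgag
H2-Aa: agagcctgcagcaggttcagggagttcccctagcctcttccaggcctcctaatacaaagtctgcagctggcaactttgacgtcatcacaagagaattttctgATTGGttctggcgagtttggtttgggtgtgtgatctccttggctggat
In H2-Eb1 the X1 core began 88 bases before the start and stood 22 bases ahead of ATTGG. In H2-DMb1 it began 91 bases before the start and stood 23 bases ahead of ATTGG, a spacing also found in H2-DMb2. The H2-Aa stretch held ATTGG alone, and the X1 letters appeared in that window only farther upstream and on the opposite strand. Of 2 windows of H2-DMa, 1 held ATTGG and neither held the X1 letters. Among 32851 promoter windows of the table, 37.4% held CCAAT, 9.85% held ACNGATG and 3.65% held both. ACNGATG with ATTGG at most 40 bases downstream, a pairing looked for after the sequences were seen, occurred in 56 windows, or 0.17%. These are matches of letters, not measured binding sites.

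Total counts per library ran from 16734741 to 17950195, with a count above 0 for 15476 to 15775 genes. The labels do not say whether the 3 libraries of a group stem from 3 animals, so the spread behind the p-values is that between libraries and may be partly technical. Markers of skeletal muscle were high in control library 1, low-dose library 3 and high-dose library 2, where the 10 markers summed to 345.5, 247.0 and 667.8 TPM, against 6.52 to 51.66 TPM in the other 9. Relative levels in low-dose library 2 fell with gene length (r = -0.56 across genes), against -0.19 to 0.34 in the other 11. Epithelial markers were nearly absent for tissue labelled as colorectal cancer: 6 of them summed to 2.31 to 8.23 TPM over the 12 libraries. Krt18 was listed at 0 in 11 libraries and Epcam reached at most 0.84 TPM.

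Class II messenger RNA was lowest in the low-dose tumours for all 7 genes, and it varied more from library to library in the stress and low-dose groups than in the high-dose and control groups. Levels are given in TPM, in which the authors corrected for the length of each gene and the depth of each library, so that they can be compared between genes. The 7 genes summed to 5120, 2827 and 1623 TPM in stress libraries 1, 2 and 3, to 2564, 644.3 and 1340 TPM in low-dose libraries 1, 2 and 3, to 2661, 3231 and 2634 TPM in the high-dose libraries, and to 3422, 3383 and 3374 TPM in the control libraries. The means were 3190 ± 1777 TPM under stress, 1516 ± 972 TPM at the low dose, 2842 ± 337 TPM at the high dose and 3393 ± 25.6 TPM in controls (SD, n = 3 each). The control libraries differed from each other by little, whereas the stress libraries lay on both sides of them. No sum in a low-dose library reached the level of any control library, and only low-dose library 1 lay above a stress library, the third. In bulk tissue, fewer cells of a type and less RNA per cell cannot be told apart.

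**Figure D1:**
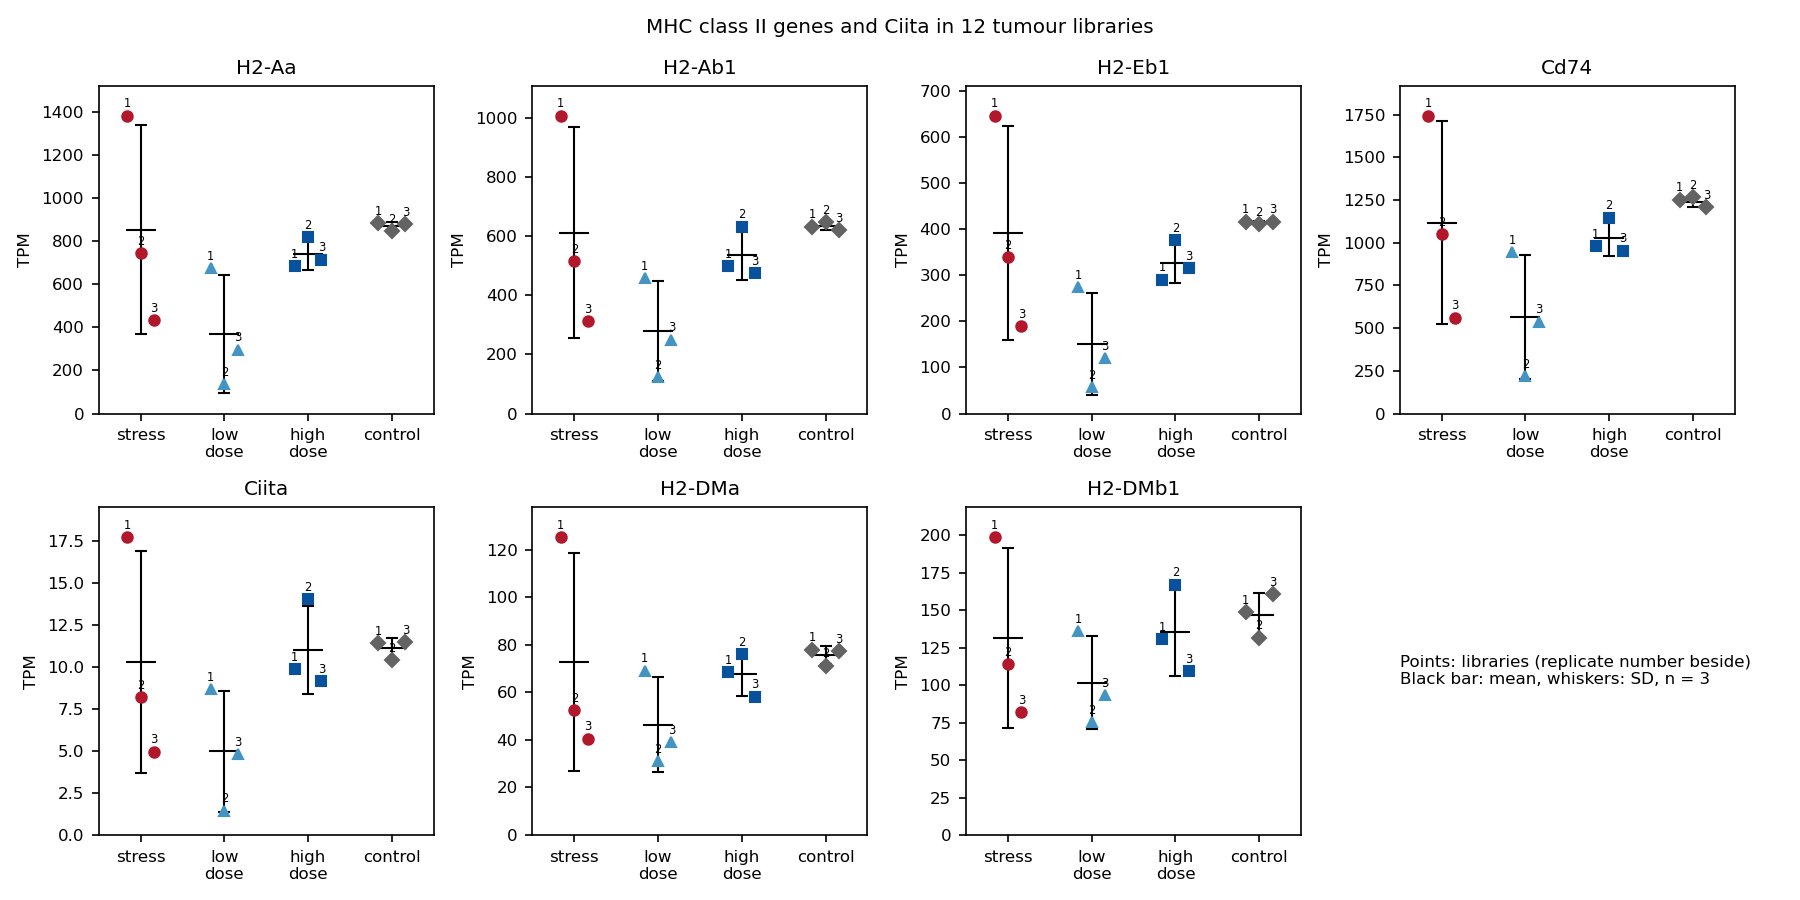
Level of each gene in TPM (vertical axes, from 0) in the stress, low-dose, high-dose and control groups, with 1 point per library and its replicate number beside it; black bars are means and whiskers SD (n = 3 each). In all 7 panels stress library 1 is the highest of the 12 points and low-dose library 2 the lowest.

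Ciita, the co-activator, lay on chromosome 16 (10480014 to 10531064, GRCm38.p6). It was far scarcer than the genes it acts on, and ranked 9229th of 17875 genes by mean TPM. It stood at 17.7, 8.22 and 4.96 TPM in stress tumours, 8.68, 1.46 and 4.83 TPM in low-dose tumours, 9.87, 14.1 and 9.17 TPM in high-dose tumours, and 11.5, 10.4 and 11.5 TPM in control tumours. Low-dose library 2 had 149.64 counts of Ciita, so its low value was not one of a few reads. Levels in that library fell with gene length, however (r = -0.56), and Ciita was the longest member. Its effective length was 6547 bases, against 851 (H2-Aa) to 1498 (H2-DMa) for the others. The 3 low-dose values lay below all 3 high-dose and all 3 control values, and overlapped with the stress values. Group means were 10.3 ± 6.64 TPM under stress, 4.99 ± 3.61 TPM at the low dose, 11.0 ± 2.64 TPM at the high dose and 11.1 ± 0.604 TPM in controls (SD, n = 3 each).

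H2-Aa, the alpha chain of I-A, had 1383, 746.1 and 433.7 TPM in stress tumours, 673.8, 137.3 and 296.1 TPM in low-dose tumours, 684.0, 819.6 and 714.7 TPM in high-dose tumours, and 884.4, 845.7 and 879.5 TPM in control tumours. H2-Ab1, its beta chain partner, had 1007, 516.2 and 311.7 TPM under stress, 458.7, 124.0 and 249.5 TPM at the low dose, 499.2, 631.9 and 475.1 TPM at the high dose and 632.2, 648.0 and 620.3 TPM in controls. H2-Eb1, whose promoter with both cores is shown above, had 645.9, 338.7 and 189.2 TPM under stress, 273.5, 57.6 and 120.4 TPM at the low dose, 290.4, 376.6 and 315.1 TPM at the high dose and 416.1, 411.0 and 416.4 TPM in controls. For all 3 chains the low-dose libraries lay wholly below the high-dose and the control libraries, while stress library 3 fell within the low-dose range. H2-Eb1 had the widest span of the 3, with its highest library 11.2 times its lowest. The gene of the alpha chain of I-E, H2-Ea, was looked for but not found among the genes listed.

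Cd74, the invariant chain, lay on chromosome 18 (60803849 to 60812652, GRCm38.p6). It was the most abundant member and ranked 133rd by mean TPM. It reached 1743, 1051 and 560.7 TPM in stress tumours, 944.4, 217.6 and 537.3 TPM in low-dose tumours, 978.2, 1146 and 952.4 TPM in high-dose tumours, and 1251, 1265 and 1208 TPM in control tumours. Its low-dose libraries lay below those of the controls, and low-dose library 1 lay close under the high-dose libraries in TPM.

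The DM genes spanned less. H2-DMa had 125.2, 52.5 and 40.5 TPM under stress, 69.1, 31.1 and 39.1 TPM at the low dose, 68.5, 76.0 and 58.1 TPM at the high dose and 78.0, 71.2 and 77.4 TPM in controls. H2-DMb1 had 198.5, 113.9 and 81.9 TPM under stress, 135.7, 75.4 and 93.1 TPM at the low dose, 130.5, 166.9 and 109.2 TPM at the high dose and 148.7, 131.5 and 160.7 TPM in controls. The highest library stood 4.03 times above the lowest for H2-DMa and 2.63 times for H2-DMb1, against 8.01 to 12.2 times for the other 5 members. H2-DMb1 was the member whose low-dose values overlapped with those of every other group. Counts of H2-DMa, H2-DMb1 and Ciita were not whole numbers in any of the 12 libraries, whereas those of the other 4 members were whole. How the authors shared reads between overlapping or near-identical genes is not given in the sources used here, so the split between H2-DMb1 and H2-DMb2 is uncertain, as is that between H2-Eb1 and H2-Eb2.

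The order of the group means was the same in TPM and in CPM, counts scaled here to library size without regard to length: the control group was highest and the low-dose group lowest for all 7 genes. For H2-Aa, H2-Ab1, H2-Eb1, Cd74 and H2-DMa the stress mean exceeded the high-dose mean, and for Ciita and H2-DMb1 the high-dose mean exceeded the stress mean. No neighbouring pair in this order differed beyond the spread between libraries, as the tests below show. The coefficient of variation within a group ran from 45.9% to 64.4% under stress, from 30.6% to 74.7% at the low dose, from 9.62% to 23.9% at the high dose and from 0.735% to 9.98% in controls (TPM, 7 genes). Across the 12 libraries the SD of log2 CPM was 0.37 for H2-DMb1, 0.46 for H2-DMa and 0.70 to 0.84 for the other 5, against a median of 0.20 over 11919 genes.

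Between stress and control tumours no member differed beyond the spread between libraries. The comparison asks whether chronic stress alters the tumour, and the log2 fold changes ran from -0.17 (H2-DMb1) to -0.03 (H2-Aa), with standard errors (SE) of 0.28 to 0.48. None of the 7 passed an adjusted p of 0.05 in edgeR's quasi-likelihood test (adjusted p = 0.9999 each, Benjamini-Hochberg over all genes tested), and 0% of all genes did. At an unadjusted p under 0.05, 383 of all genes, or 2.85%, and no member passed. All 7 values were below 0, beside 48.3% of all genes, and in no member were the groups wholly separate, beside 14.1% of genes. The 95% interval for H2-Aa reached from -1.04 to 0.97, so changes of up to about that size in either direction could not be seen at this spread. The sign depended on single libraries: H2-Aa stood at -0.55 without stress library 1 and at 0.275 without stress library 3.

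Low-dose tumours held less class II RNA than stress tumours in the mean of all 7 genes, but no difference passed after adjustment (0% of all genes). All 7 values were below 0, as were 50.1% of all genes; the median was -0.88 over the members and 0.00 over all genes. H2-Eb1 averaged 150.5 ± 111 TPM at the low dose and 391.3 ± 233 TPM under stress, a log2 fold change of -1.28 (SE 0.47; 95% interval -2.33 to -0.24; adjusted p = 0.320, edgeR). H2-Aa averaged 369.0 ± 276 TPM at the low dose and 854.3 ± 484 TPM under stress (log2 fold change -1.11, SE 0.46; adjusted p = 0.352). H2-Ab1 averaged 277.4 ± 169 TPM at the low dose and 611.6 ± 357 TPM under stress (log2 fold change -1.03, SE 0.42; adjusted p = 0.350). The difference was smaller for Cd74 at -0.88 (SE 0.43; adjusted p = 0.390) and for Ciita at -0.87 (SE 0.49; adjusted p = 0.451), and smallest for H2-DMa at -0.52 and H2-DMb1 at -0.22. At an unadjusted p under 0.05, 3 of 7 members were lower (H2-Eb1, H2-Ab1 and H2-Aa), beside 6.55% of all genes that were lower and 13.4% in either direction. In no member were the low-dose libraries wholly below the stress libraries, a separation seen in 6.57% of genes. DESeq2 and limma-voom likewise called 0 members in each of the 6 comparisons.

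The low-dose difference depended on single libraries. Without low-dose library 1, H2-Eb1 stood at -1.90 (adjusted p = 0.0415, edgeR) and H2-Aa at -1.73 (adjusted p = 0.0441), and both then passed, together with 1244 genes in all, against 0 with every library in. Without stress library 1, by contrast, H2-Eb1 stood at -0.73 (adjusted p = 0.595) and H2-Aa at -0.59. Without low-dose library 2, the library with the length trend, H2-Eb1 stood at -0.93 (adjusted p = 0.637). With the length trend taken out of every library, the H2-Eb1 difference was -1.34 (adjusted p = 0.57, edgeR). Without the 3 libraries high in muscle markers it was -1.18 (adjusted p = 0.527, edgeR). The part of the length trend and of muscle content in the difference was not tested. For Ciita, the longest member, the difference from stress ran from -1.21 to -0.71 over the alternatives other than leaving out single libraries. Removing the length trend was among these.

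**Figure D2:**
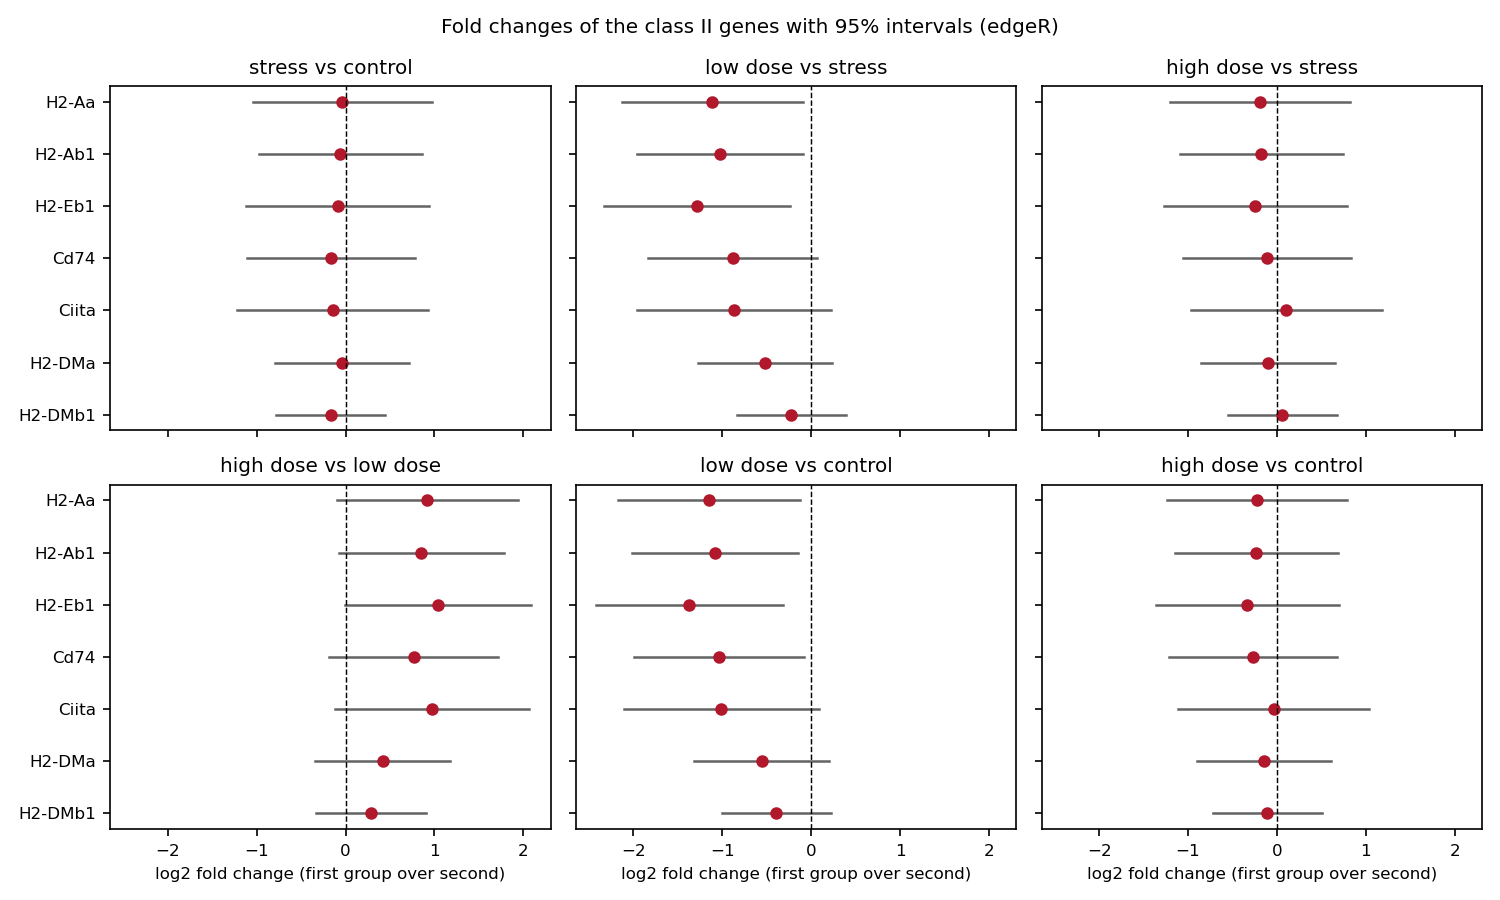
Log2 fold changes of the 7 genes (horizontal axis, first-named group over second) in the 6 comparisons; dots are edgeR estimates and lines 95% intervals. Low-dose values lie left of 0 against stress and against control, high dose over low dose lies right of 0, and no adjusted p is under 0.05.

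High-dose tumours were close to stress tumours in group mean. H2-Aa averaged 739.4 ± 71.1 TPM at the high dose and 854.3 ± 484 TPM under stress, and Ciita averaged 11.0 ± 2.64 TPM at the high dose and 10.3 ± 6.64 TPM under stress. The fold changes ran from -0.24 (H2-Eb1) to 0.11 (Ciita), with adjusted p = 0.9998 for each in edgeR. No member passed even at an unadjusted p under 0.05, beside 1.42% of all genes. The fold change was below 0 for 5 of 7 members, beside 51.1% of genes, and no member separated the groups, beside 5.75%. The high-dose libraries lay inside the range of the stress libraries for all 7 genes.

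The high-dose mean exceeded the low-dose mean in all 7 genes, again without passing (0% of all genes passed). None of the 7 was below 0, against 49.2% of all genes, and the median was 0.85 over the members and 0.00 over all genes. H2-Eb1 averaged 327.3 ± 44.4 TPM at the high dose and 150.5 ± 111 TPM at the low dose (log2 fold change 1.04, SE 0.47; 95% interval -0.00347 to 2.08; unadjusted p = 0.0506, adjusted p = 0.758, edgeR). Ciita stood at 0.97 (SE 0.49), H2-Aa at 0.92 (SE 0.46), H2-Ab1 at 0.85 (SE 0.42) and Cd74 at 0.77 (SE 0.43), with adjusted p = 0.758 for each. H2-DMa stood at 0.42 and H2-DMb1 at 0.29. No member passed at an unadjusted p under 0.05, beside 2.75% of all genes that were higher at the high dose. In CPM the high-dose libraries lay wholly above the low-dose libraries for 4 members (H2-Eb1, Ciita, H2-Aa and H2-Ab1), as for 4.16% of all genes. Because the low-dose libraries enter this comparison and the one with stress, they are not independent.

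Low-dose tumours also stood below control tumours, where the control libraries were tightly grouped. All 7 fold changes were below 0, beside 49.5% of all genes, and the median was -1.04 over the members and 0.00 over all genes. H2-Eb1 averaged 150.5 ± 111 TPM at the low dose and 414.5 ± 3.05 TPM in controls (log2 fold change -1.37, SE 0.47; 95% interval -2.42 to -0.32; adjusted p = 0.323, edgeR). H2-Aa stood at -1.14 (SE 0.46; adjusted p = 0.346), H2-Ab1 at -1.08 (SE 0.42; adjusted p = 0.339), Cd74 at -1.04 (SE 0.43; adjusted p = 0.355) and Ciita at -1.01 (SE 0.49; adjusted p = 0.403). H2-DMa at -0.56 and H2-DMb1 at -0.39 were again the least different. At an unadjusted p under 0.05, 4 of 7 members were lower, beside 6.73% of all genes, and none passed after adjustment, as for all genes (0%). In CPM the low-dose libraries lay wholly below the control libraries for 6 of 7 members, all but H2-DMb1, as for 9.74% of all genes. Without low-dose library 1, H2-Eb1 stood at -1.99 and passed (adjusted p = 0.0487), 1 of 652 genes that did; without low-dose library 2 it stood at -1.02 (adjusted p = 0.751).

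High-dose tumours were close to controls, with all 7 fold changes below 0, as for 49.5% of all genes. The fold changes ran from -0.33 (H2-Eb1) to -0.04 (Ciita), with an adjusted p of 1 for each in edgeR, and no member passed at an unadjusted p under 0.05, beside 1.04% of all genes. In CPM the high-dose libraries of Cd74 and H2-Eb1 lay wholly below the control libraries, as for 4.93% of all genes.

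The members varied together over the 12 libraries, the DM genes less closely than the rest. The correlation of log2 CPM was 0.997 between H2-Aa and H2-Eb1 (Spearman's rho 0.993), 0.991 between H2-Aa and H2-Ab1 (rho 0.937) and 0.988 between H2-Aa and Cd74 (rho 0.923). Ciita correlated at 0.965 with H2-Aa (rho 0.923) and at 0.859 with H2-DMb1 (rho 0.937). H2-DMb1 tracked H2-DMa at 0.942 (rho 0.972) more closely than it did H2-Aa, at 0.775 (rho 0.867). Without the 2 libraries farthest from the median of H2-Aa, its correlation was 0.99 with H2-Eb1, 0.943 with Ciita and 0.896 with H2-DMb1, so none of these 3 correlations rested on those 2 alone. With group means taken out, H2-Aa and Ciita still correlated at 0.969, that is, they followed each other among libraries of the same group. These correlations are descriptions over 12 libraries that share depth and tissue composition, and carry no p.

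**Figure D3:**
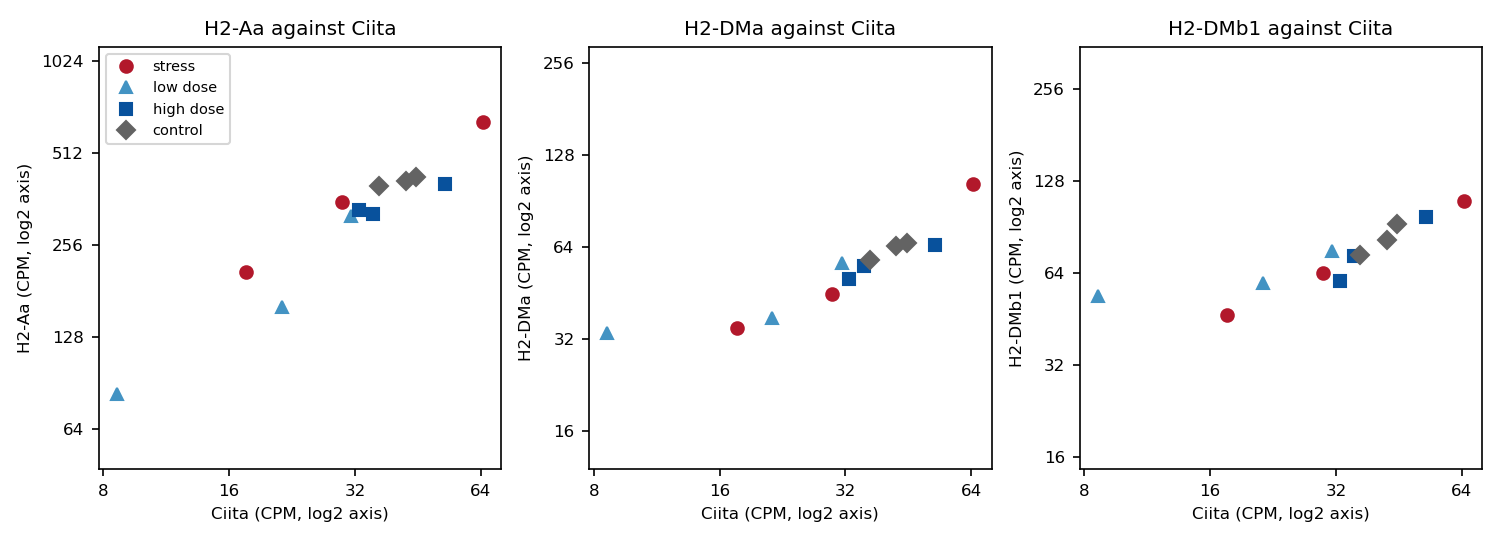
CPM of H2-Aa, H2-DMa and H2-DMb1 (vertical axes, log2, each spanning the same fold range) against CPM of Ciita (horizontal axes, log2) in the 12 libraries, marked by group. H2-Aa climbs with Ciita at a slope of 0.973 on the log2 scale, and H2-DMa (0.538) and H2-DMb1 (0.408) climb less steeply.

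Across the libraries, a doubling of Ciita went with nearly a doubling of the classical chains and less for DM. The slope of log2 CPM on that of Ciita was 1.05 for H2-Eb1, 0.973 for H2-Aa, 0.891 for Cd74 and 0.877 for H2-Ab1, against 0.538 for H2-DMa and 0.408 for H2-DMb1. The ratio of H2-Aa to H2-DMb1 in TPM showed the same gap between libraries. It was 6.97, 6.55 and 5.30 in stress libraries 1 to 3, 4.97, 1.82 and 3.18 in low-dose libraries 1 to 3, 5.24, 4.91 and 6.54 in high-dose libraries 1 to 3, and 5.95, 6.43 and 5.47 in control libraries 1 to 3. All 3 low-dose ratios lay below the lowest stress and the lowest control ratio, and they overlapped with the high-dose ratios. In an exact 2-sided permutation test the mean log2 ratio differed by -1.02 between low dose and stress (p = 0.1, adjusted p = 0.3 over 6 comparisons) and by -0.95 between low dose and control (p = 0.1, adjusted p = 0.3), and 3 libraries against 3 cannot go below 0.1. H2-Aa over H2-DMa was likewise lower at 9.75, 4.42 and 7.57 in low-dose libraries 1 to 3, against 9.98 to 14.2 in the other 9 libraries. H2-Aa over Ciita, in contrast, was 61.3 to 94.0 at the low dose and 76.6 to 81.2 in controls, with no separation.

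The remaining class II genes were scarce. H2-DMb2, the second DM beta gene, had 10.5, 4.66 and 3.19 TPM under stress, 3.78, 1.07 and 4.07 TPM at the low dose, 5.78, 7.06 and 6.43 TPM at the high dose and 8.30, 7.25 and 6.28 TPM in controls. Its low-dose values lay below all control values (log2 fold change -1.17, SE 0.45; adjusted p = 0.334, edgeR) and below all high-dose values. H2-Ob, a chain of the DO molecule that restrains DM, stood at -1.13 between low dose and stress (SE 0.42; adjusted p = 0.320), and H2-Oa, the other DO chain, at -0.86 (SE 0.55; adjusted p = 0.499). H2-Eb2 was below the filter on low counts and reached at most 0.40 TPM. In all, 3 of 3 tested genes of this list were lower at the low dose than under stress, with a median of -0.93, and none passed. Over all genes 50.1% were lower and the median was 0.00. Between high dose and low dose 3 of 3 were higher (median 0.90), beside 49.2% of all genes that were lower. H2-Oa differed little between the doses, with 0.65, 0.79 and 0.96 TPM at the high dose and 1.05, 0.21 and 0.86 TPM at the low dose.

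Promoter factors and histone acetyltransferases, taken as a sum, varied far less than Ciita. Single genes spanned more than the sum. Ep300 ran from 10.1 to 21.5 TPM and Rfx5 from 10.9 to 23.3 TPM over the 12 libraries, against 1.46 to 17.7 TPM for Ciita. The 10 genes for RFX, NF-Y, CREB and histone acetyltransferases summed to 277.2 to 296.5 TPM under stress, 222.5 to 297.7 TPM at the low dose, 274.9 to 295.1 TPM at the high dose and 283.4 to 294.7 TPM in controls. Between low dose and stress 7 were lower and 3 higher, with a median of -0.05, and none passed. Ep300, a histone acetyltransferase, stood at -0.38 (SE 0.14; adjusted p = 0.320) and Crebbp, its relative, at -0.26 (adjusted p = 0.361). Rfx5, a DNA-binding subunit of the RFX complex, stood at -0.30 between low dose and control (adjusted p = 0.437). Its correlation with the mean of the 7 members over the 12 libraries was 0.823, the highest of the 10, while the other RFX subunits stood at -0.708 (Rfxap) and -0.306 (Rfxank) and the list's median was 0.33.

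Genes on the path from interferon-gamma to Ciita were split between low dose and stress. Of 13 such genes, 6 were lower and 7 higher, with a median of 0.01. Between high dose and low dose 12 of the 13 were higher (median 0.09), between high dose and stress 10 were higher (median 0.16), and between low dose and control 9 were lower (median -0.16). None passed in any of these comparisons. Ifng itself had 3.16, 1.39 and 1.73 TPM at the low dose and 4.20, 1.68 and 0.98 TPM under stress, a log2 fold change of 0.01 (SE 0.54). Jak1, a kinase of the receptor, stood at -0.25 (SE 0.11; unadjusted p = 0.0425, adjusted p = 0.363), and its 3 low-dose libraries overlapped with the stress libraries in TPM, though not in CPM. The 12 interferon-gamma-induced genes gave 11 lower and 1 higher between low dose and stress (median -0.24). All 12 were lower between low dose and control (median -0.44), and 12 were higher between high dose and low dose (median 0.54). Comparisons without the low dose could be as one-sided. Between stress and control 11 were lower (median -0.19), and between high dose and stress 11 were higher (median 0.27). High dose against control gave 6 lower and 6 higher. None passed in any comparison, and 48.3% to 51.1% of all genes were lower in each. Gbp2b, a guanylate-binding protein, stood at -2.28 between low dose and control (unadjusted p = 0.0250, adjusted p = 0.334), from levels of 0.80, 0.00 and 0.23 TPM at the low dose and 2.14, 1.60 and 1.58 TPM in controls. The same list had a median correlation of 0.734 with the mean of the members, against 0.0296 over all genes. Other immune lists were also above the median of all genes. Leukocyte markers stood at 0.737, dendritic cell markers at 0.68, class I genes at 0.58, CD4 T cell markers at 0.421 and macrophage markers at 0.31.

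MHC class I genes were split in each of the 6 comparisons, with 3 to 5 of 8 lower and none passing. Between low dose and stress, 3 were lower and 5 higher, with a median of 0.01. H2-K1, a class I heavy chain, stood at 0.00 (SE 0.22), and its correlation with the mean of the class II members was 0.0133 over the 12 libraries. Nlrc5, the class I counterpart of Ciita, had 49.9, 22.0 and 42.1 TPM at the low dose and 76.5, 56.6 and 31.4 TPM under stress (log2 fold change -0.43, SE 0.32; adjusted p = 0.557). Its correlation with the members, 0.916, was the highest of the class I list.

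Genes for the proteins that prepare peptides and trim the invariant chain were split between low dose and stress, with 4 of 9 lower, 5 higher and none passing. Ctsd, encoding cathepsin D, had 553.0, 632.9 and 423.7 TPM at the low dose and 371.9, 410.6 and 289.7 TPM under stress (log2 fold change 0.77, SE 0.22; unadjusted p = 0.00395, adjusted p = 0.296, edgeR). All 3 low-dose libraries lay above the stress libraries. Ctsl, encoding cathepsin L, stood at 0.68 (SE 0.22; adjusted p = 0.296), and Ctss, encoding the cathepsin S that trims the invariant chain, at 0.16 (SE 0.27; adjusted p = 0.812). Sppl2a, a protease that cleaves the remaining fragment of the invariant chain, stood at -0.26 (SE 0.14; adjusted p = 0.413), and Lgmn, the lysosomal protease legumain, at -0.11 (SE 0.16; adjusted p = 0.780).

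Dendritic cell markers, like the class II genes, had their lowest sums at the low dose, whereas macrophage markers were split. The 10 dendritic cell markers summed to 27.3 to 59.1 TPM under stress, 11.3 to 26.0 TPM at the low dose, 34.3 to 44.3 TPM at the high dose and 35.6 to 44.5 TPM in controls, so that the low-dose range lay below the other 3. All 10 had lower means at the low dose than under stress (median -1.20), beside 50.1% of all genes with a median of 0.00. Of the 10, 6 were lower at an unadjusted p under 0.05, beside 6.55% of all genes, and none passed after adjustment. Against controls, 7 of the 10 markers were higher under stress (median 0.66) and 8 were higher at the high dose (median 0.34). All 7 class II members were lower in both of these comparisons, beside 48.3% and 49.5% of all genes. Ccl22, a chemokine of mature dendritic cells, had 2.58, 0.90 and 2.42 TPM at the low dose and 7.50, 6.39 and 2.98 TPM under stress (log2 fold change -1.38, SE 0.40; adjusted p = 0.296). Ccr7, their homing receptor, stood at -1.60 (SE 0.47; adjusted p = 0.296) and Flt3, a growth factor receptor of the lineage, at -2.30 (SE 0.70; adjusted p = 0.296). Flt3 was scarce, at 0.43, 0.10 and 0.03 TPM at the low dose and 1.08, 0.65 and 1.17 TPM under stress. The 10 macrophage markers summed to 1167 to 1782 TPM under stress, 1013 to 2187 TPM at the low dose, 1126 to 2067 TPM at the high dose and 1182 to 1346 TPM in controls, with 5 lower and 5 higher between low dose and stress (median -0.04). Low-dose library 2 was the lowest of the 12 for class II and for the dendritic cell markers, and stress library 1 the highest for both. The part of cell composition in the class II values was not tested.

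**Figure D4:**
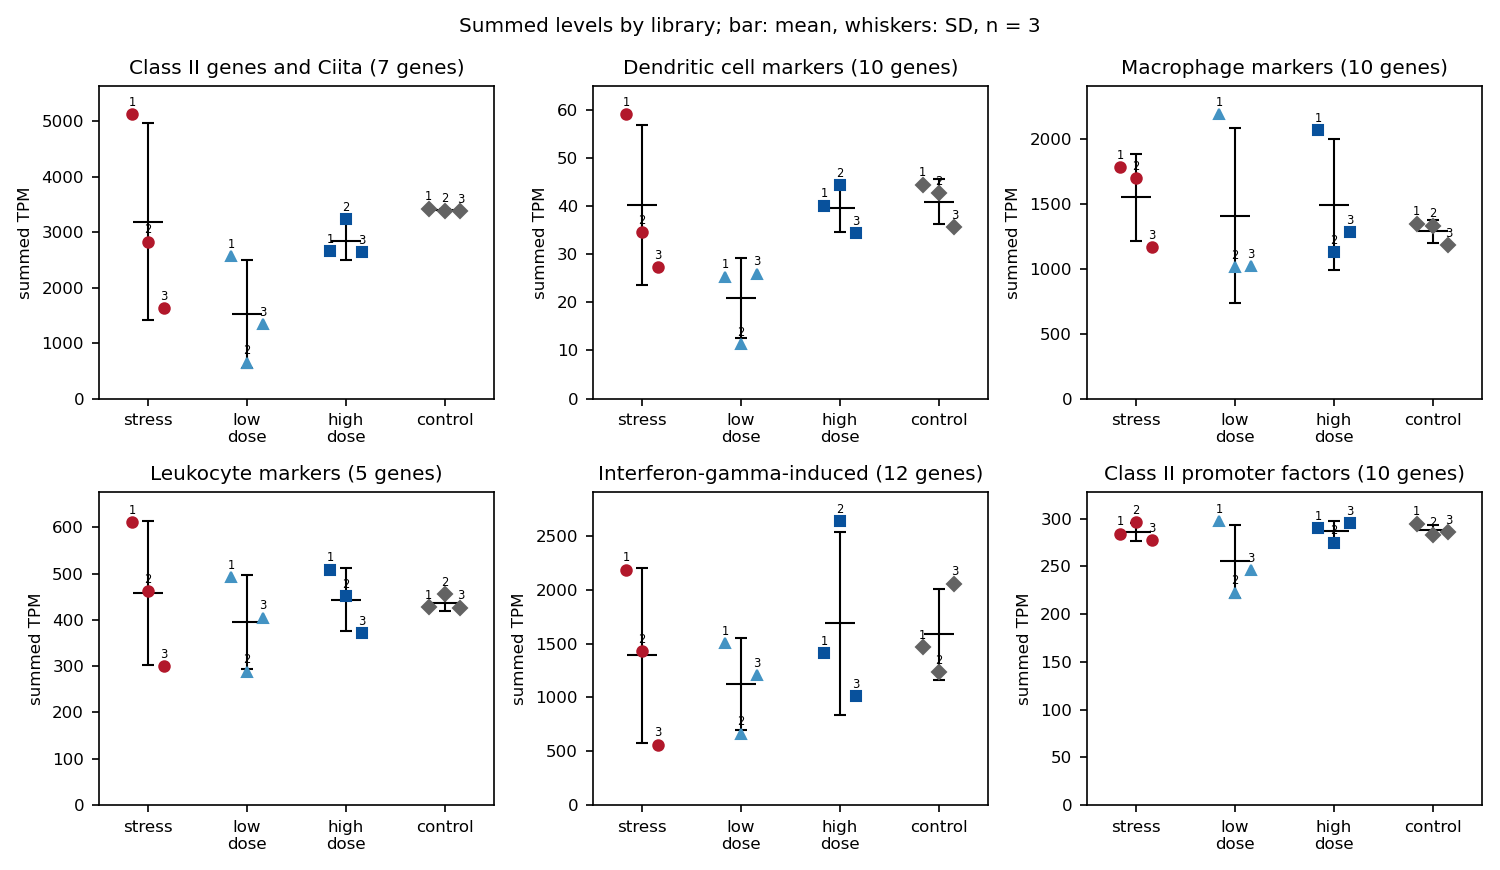
Summed TPM (vertical axes, from 0) of the 7 class II genes and of 5 other gene lists in the stress, low-dose, high-dose and control groups; points are libraries with their replicate numbers, bars means and whiskers SD (n = 3 each). Low-dose dendritic cell sums (11.3 to 26.0 TPM) lie below those of the other groups, while macrophage sums overlap.

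B cells also carry class II, and their markers were nearly absent. Of the 6 B cell markers, 5 were below the filter on low counts, Ms4a1 and Cd79b were at 0 in some library, and the list summed to 0.51 to 1.52 TPM over all libraries. Leukocyte markers summed to 288.4 to 492.3 TPM at the low dose and 300.4 to 611.7 TPM under stress, with 3 of 5 lower. CD4 T cell markers, of which 5 of 6 were found, summed to 23.6 to 43.9 TPM at the low dose and 19.2 to 69.4 TPM under stress, with 5 of 5 lower (median -0.33). All 5 were also lower between high dose and stress (median -0.42), but all 5 were higher between low dose and control (median 0.22), and none passed in any of these. Among co-stimulatory molecules, Cd83, a marker of dendritic cell maturation, had 4.25, 1.94 and 2.10 TPM at the low dose and 6.28, 7.50 and 5.39 TPM under stress (log2 fold change -1.09, SE 0.33; unadjusted p = 0.00576, adjusted p = 0.296). Cd86 stood at -0.54 (SE 0.19; adjusted p = 0.314) and Icosl at -0.40 (SE 0.17; adjusted p = 0.350). Of the 6 co-stimulatory genes, 4 were lower and 2 higher, with a median of -0.42.

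The genes whose pattern over the 12 libraries was most like that of the class II genes were sought among 11912 other genes. By Pearson's r of log2 CPM with the mean of the 7 members, the 10 closest were Grap2 (0.987), Plbd1 (0.951), Zfp697 (0.948), Gm1966 (0.945), Itgal (0.944), Dennd1b (0.943), Fgl2 (0.943), Gm2a (0.937), H2-DMb2 (0.930) and Ptprc (0.930). Agreement by rank was weaker for some of them. Spearman's rho ran from 0.587 for Ptprc and 0.706 for Gm2a to 0.923 for Grap2 and Plbd1. Grap2 encodes a leukocyte adaptor protein, Itgal an integrin of leukocytes and Ptprc the pan-leukocyte protein CD45. Of the 10, 6 stayed among the closest 10 when group means were taken out, and 8 when only genes with a mean log2 CPM above 3 were compared. For Ciita alone the 5 closest genes were Cd74 (0.977), H2-Ab1 (0.976), Grap2 (0.968), H2-Aa (0.965) and Itgal (0.960). Their rho with Ciita ran from 0.776 (Itgal) to 0.944 (Grap2). Pairs were ranked over 12 libraries and many genes, and a high place in the ranking is a description.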

How the data were processed

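Per the labels' protocols, poly(A) RNA was taken from total RNA with an integrity number above 7 and made into stranded paired-end libraries. Per the submitters' processing notes, the tools were cutadapt 1.9, HISAT2 2.0.4 and StringTie 1.3.4d, with DESeq2 and edgeR without versions, and the build GRCm38.p6; annotation, counting options and filters are not given in the sources used here. The authors deposited estimated counts per gene without scaling, of which 11.7% to 12.5% per library were not whole, FPKM scaled by the authors for length and library size, and TPM scaled by the authors to the same sum per library. For the tests these estimates were rounded, since whole counts had been planned for. FPKM served only to derive gene lengths.

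Genes passing filterByExpr at a minimum count of 10 were tested with edgeR 4.0.16 (TMM, robust quasi-likelihood, 2-sided, R 4.3.3) in 1 model of 12 libraries and 4 groups, with 8 residual degrees of freedom. P-values were adjusted by Benjamini-Hochberg over all those genes, and the threshold was 0.05. Groups that do not overlap were judged in CPM. Alternatives were DESeq2 1.42.0, limma-voom (limma 3.58.1), RLE factors, other filters, only the 2 groups compared, a muscle score as covariate, offsets removing each library's length trend (loess, span 0.3), the replicate number as a block and each library left out; leaving out the 3 muscle-rich libraries was added after the data were seen. The members and gene lists were chosen with earlier results of these data known. All members were named, with up to 3 genes per list and comparison by smallest p, and the 10 genes outside the members (5 for Ciita) by highest correlation; a few other list genes named for their role were chosen after their values were seen. Simulated 2-fold and 4-fold changes were used to test the fits. Promoter windows came from RefSeq (GRCm38.p6), and 17820 genes matched it by ID. Pairs of libraries of a group differed by 6.34 to 77.1 in chi-square per gene, more than counting noise alone gives. No library was thus a plain re-sequencing of another in its group. Separate preparations of the same tumour cannot be told from separate animals in this way.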

Additional observations from a re-analysis of the deposited data

How the results depend on the processing

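Of 672 fold changes of single members under the alternatives, 626 kept direction and side of the threshold, 3 newly passed and 43 had the opposite sign; the signs of high dose over low dose and of low dose over control held in all 112 values each. The count of members passing stayed at 0 except without low-dose library 1, with ranges over left-out libraries of 0 to 2 (low dose against stress) and 0 to 1 (low dose against control). Over all genes, edgeR's 0 calls became 1, 95, 5, 68 and 1 with DESeq2 for stress against control, low dose against stress, high dose against low dose, low dose against control and high dose against control; 1 gene passed for low dose against control without the muscle-rich libraries and 1 for high dose against control with only those groups; leaving out libraries gave 0 to 1244 for low dose against stress, 0 to 99 for high dose against low dose and 0 to 652 for low dose against control. Signs turned for stress against control with limma-voom (H2-Aa 0.10, H2-Ab1 0.0826, H2-Eb1 0.0471, H2-DMa 0.10) and the muscle covariate (H2-Aa 0.0256, H2-Ab1 0.017, H2-DMa 0.0316); for high dose against stress with limma-voom (Ciita -0.15, H2-DMb1 -0.20), the muscle covariate (Ciita -0.0697, H2-DMb1 -0.0624) and without the muscle-rich libraries (Ciita -0.13, H2-DMb1 -0.15); and for Ciita between high dose and control with the length trend removed (0.0193). Leaving out libraries gave, for stress against control, -0.554 to 0.275 for H2-Aa, -0.606 to 0.25 for H2-Ab1, -0.643 to 0.236 for H2-Eb1, -0.616 to 0.156 for Cd74, -0.799 to 0.193 for Ciita, -0.654 to 0.236 for H2-DMa and -0.58 to 0.0723 for H2-DMb1; for high dose against stress, -0.493 to 0.328 for H2-Aa, -0.474 to 0.375 for H2-Ab1, -0.561 to 0.31 for H2-Eb1, -0.42 to 0.344 for Cd74, -0.222 to 0.762 for Ciita, -0.371 to 0.511 for H2-DMa and -0.171 to 0.474 for H2-DMb1; for low dose against stress, -0.781 to 0.0945 for H2-DMa and -0.45 to 0.187 for H2-DMb1; and for high dose against control, -0.276 to 0.0904 for Ciita and -0.316 to 0.0417 for H2-DMb1. The cause was not tested. With 1 library left out, its group rested on the other 2, with the spread taken from all groups.

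The replicate numbers showed no general pairing of the libraries. In deviations from group means, 3 of 18 same-numbered pairs correlated above 0.1, and 5 of 12 libraries were closest to one of their own number. Same-numbered pairs reached 0.42 (low-dose and high-dose library 1) and 0.39 (control and stress library 1). A pair of unlike numbers reached 0.67 (low-dose library 3 and high-dose library 2). Whether same-numbered libraries shared a batch cannot be told from these values. With the number as a block, H2-Eb1 stood at -1.28 between low dose and stress (adjusted p = 0.356) and at -1.51 between low dose and control (adjusted p = 0.373), H2-DMa turned to 0.018 between high dose and stress, and no call changed. The members' fold changes had SE of 0.28 to 0.49, against a median of 0.164 over all genes; the part of sequencing depth in this was not tested.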
